A study of Mus musculus with 12 samples.

Results

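The 2 cell fractions compared here came from the livers of control mice: a sinusoidal endothelial cell fraction (Q-SEC, 3 libraries) and a hepatic stellate cell fraction (Q-HSC, 3 libraries). They made up 6 of the 12 bulk RNA-sequencing libraries of the study, and all 23472 gene entries among the 56825 entries of the table were taken, while entries named for cDNA clones were set aside. All donors were male C57BL/6 mice that received olive oil intraperitoneally 2 times a week for 6 weeks from an age of 6 to 8 weeks, so that Q-SEC and Q-HSC stand for the same oil-injected liver at 12 to 14 weeks. The other groups, F-SEC and F-HSC, came from mice given CCl4 in that oil (0.6 µl per g body weight, at 15%) on the same schedule, and entered the model as libraries that share its estimate of the spread. Livers were digested with collagenase, hepatocytes were spun out at low speed and the remaining cells were layered on a density gradient. Q-SEC was taken from the lower interface and then bound to magnetic beads for sinusoidal endothelium, whereas Q-HSC was taken from the upper interface with no bead step. Neither fraction was sorted by a stellate or macrophage marker, and no label ties a library to its own mouse or mice. The spread behind each p-value is therefore that among libraries, and part or all of it may be technical.

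Sinusoidal endothelial cells line the liver capillaries as a fenestrated, scavenging endothelium that lacks a continuous basement membrane. Stellate cells sit outside this lining in the space of Disse, store vitamin A as retinyl esters and can turn into matrix-producing myofibroblasts. Kupffer cells, the resident macrophages, sit inside the sinusoid on the endothelium, and they take up particles, aged red cells and complement-coated microbes. The comparison of the fractions asks how far each isolation parted these neighbours.

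Levels are given as CPM, read counts scaled to a common library size, and differences as log2 of Q-SEC over Q-HSC with a standard error (SE), so that a positive value means higher in Q-SEC. A gene was called at an adjusted p under 0.05 in edgeR's quasi-likelihood test over the 14489 genes with enough reads, and every adjusted p below is from that test. The 6 libraries held from 8714228 to 10643626 gene counts, at which 3 counts stood for 0.293 to 0.335 CPM. The first principal component (65.3% of the variance) parted the fractions and the second (20.9%) parted Q-SEC.1 and Q-HSC.1 from the other 4 libraries, which bears on every stellate result below. In bulk fractions, fewer cells of a type and less RNA per cell cannot be told apart.

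Of the 14489 genes tested, 4317 (29.8%) were called, 2243 higher (15.5%) and 2074 lower (14.3%) in Q-SEC. The counts were close, but the sizes were not. Genes called higher had a median log2 difference of 1.02 (median SE 0.21), whereas genes called lower had one of -1.86 (median SE 0.40), against 0.01 over all tested genes. At least a 4-fold difference separated 60 of the genes called higher and 957 of those called lower, and at least a 16-fold difference 7 and 235. The values of the Q-SEC and Q-HSC libraries did not overlap for 6867 genes, which is 47.4% of those tested. They did not overlap for 4253 of the 4317 called genes, so a lack of overlap adds little to a call. Genes named for the largest fold difference were taken only from those without overlap. After omission of any 1 of the 6 libraries, 1216 genes remained called higher and 1307 lower.

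Endothelial markers were abundant in every Q-SEC library, and both fractions held RNA of several cell types. Transcripts of 16 sinusoidal endothelial genes took 2.95, 2.84 and 2.66% of all gene counts in Q-SEC, against 1.5, 0.971 and 0.950% in Q-HSC. The 22 stellate cell markers took 0.482, 0.0614 and 0.0482% in Q-SEC, against 0.714, 0.187 and 0.142% in Q-HSC, so that Q-SEC.1 held a larger share of them than Q-HSC.2 and Q-HSC.3 did. The 20 Kupffer cell markers took 0.270, 0.184 and 0.158% in Q-SEC, against 1.16, 1.40 and 2.90% in Q-HSC. The lists differ in length and in the level of their genes. On these lists, each Q-HSC library held more counts of Kupffer cell markers than of stellate cell markers. It also held more counts of sinusoidal endothelial genes than of stellate cell markers. For that reason Q-HSC is called a fraction here, not a cell type.

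**Figure D1:**
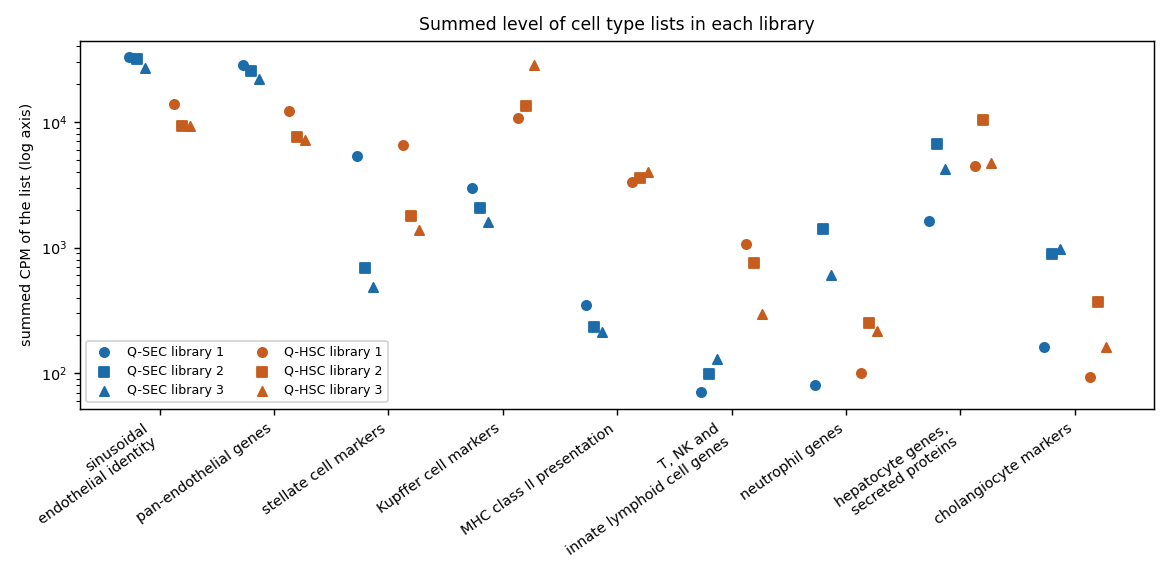
Summed CPM (log axis) of the measured members of 9 cell type lists in each library, with Q-SEC in blue to the left of Q-HSC in orange and the symbol giving the library number. Kupffer cell markers sum to 2966, 2046 and 1592 CPM in Q-SEC and to 10631, 13326 and 28243 CPM in Q-HSC, while stellate cell markers are high in library 1 of both fractions.

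Genes shared by all endothelium were higher in Q-SEC without exception, and by a similar amount. All 20 pan-endothelial genes, among them junction, adhesion and vascular receptor genes, were called higher, with differences from 1.13 to 1.92 and a median of 1.51. Sox7, a SoxF transcription factor of endothelium (mm10 chromosome 14, 63943706 to 63950732), had 110, 131 and 150 CPM in Q-SEC, against 43.3, 34.3 and 25.9 CPM in Q-HSC. Every Q-SEC library lay above every Q-HSC library, and the log2 difference was 1.92 ± 0.21 (adjusted p = 0.00026). Its relatives behaved alike, with Sox18 at 1.5 ± 0.34 and Sox17 at 1.41 ± 0.32 (adjusted p = 0.0075 and 0.0072). Nos3, the endothelial nitric oxide synthase, had 216, 239 and 241 CPM in Q-SEC, against 92.9, 87.2 and 61.2 CPM in Q-HSC, and Tie1, an orphan receptor of the angiopoietin system, had 998, 870 and 813 CPM against 391, 267 and 222 CPM in Q-HSC. Both were high in all Q-SEC libraries without overlap, at log2 differences of 1.53 ± 0.21 and 1.6 ± 0.24 (adjusted p = 0.00056 and 0.00080). Emcn, a sialomucin named after its values were seen, was the member whose call ended on omission of 1 library, Q-HSC.2 or Q-HSC.3.

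Genes of the sinusoidal endothelium itself were called higher for 14 of 16 members (median 1.49). Adam23, a cell-surface disintegrin, had 1373, 1533 and 1317 CPM in Q-SEC, against 564, 465 and 452 CPM in Q-HSC (1.51 ± 0.23 on the log2 scale, adjusted p = 0.00082). Dnase1l3, a secreted nuclease that degrades DNA of dying cells, had 4590, 4127 and 3542 CPM in Q-SEC, against 1918, 1163 and 984 CPM in Q-HSC (1.59 ± 0.32, adjusted p = 0.0038). Neither gene overlapped between the fractions, and both were lowest in Q-HSC.3. Ehd3, an endocytic recycling protein, differed by 1.47 ± 0.39 and was no longer called once Q-HSC.2 or Q-HSC.3 was left out (largest adjusted p 0.069), as did that of the zona pellucida-domain gene Oit3 (1.56 ± 0.41, up to 0.066). The members not called, both named after their values were seen, were Ptgs1, cyclooxygenase 1, at -0.55 ± 0.28 and the transcription factor gene Tfec at -0.55 ± 0.22.

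Scavenger and lectin receptors listed for the sinusoid were called higher for 9 of 10 members, with a median of 1.38. Scavenger receptor genes outside this list differed. Marco (-4.57 ± 0.66), Cd163 (-5.00 ± 0.90) and Cd5l (-4.52 ± 0.74) were called lower, and Msr1, Scara3, Scara5 and Colec12 were not called. Scarb2 was called higher (0.74 ± 0.22), but not without Q-SEC.2, Q-HSC.1 or Q-HSC.2. Clec4g, a C-type lectin of sinusoidal endothelium also called LSECtin (mm10 chromosome 8, 3716071 to 3720651), had 3536, 3051 and 2755 CPM in Q-SEC, against 1410, 891 and 864 CPM in Q-HSC. Every Q-SEC library lay far above every Q-HSC library, and the log2 difference was 1.56 ± 0.34 (adjusted p = 0.0054). Fcgr2b, the inhibitory Fc receptor that clears small immune complexes, had 2493, 2292 and 2193 CPM in Q-SEC, against 1045, 697 and 565 CPM in Q-HSC (1.6 ± 0.32, adjusted p = 0.0036). Its values in Q-SEC lay close together and far from those in Q-HSC. Scarf1, a receptor for modified lipoprotein, differed by 1.06 ± 0.22 and Stab1 by 1.46 ± 0.34. The mannose receptor Mrc1 (1.02 ± 0.26) lost its call without Q-HSC.2 (adjusted p = 0.062), and the hyaluronan receptor Lyve1 (1.35 ± 0.46, adjusted p = 0.048) lost it without any 1 of 5 libraries, Q-HSC.1 excepted (up to 0.16). The fatty acid translocase Cd36 (1.25 ± 0.39) lost it without any 1 library except Q-SEC.1 (up to 0.11). Scarb1, the receptor for high-density lipoprotein, was the member not called, with 220, 146 and 145 CPM in Q-SEC, against 177, 164 and 265 CPM in Q-HSC.

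Genes that mark the ends of the sinusoid rose together rather than apart. Near the central vein, where endothelium sends Wnt signals to hepatocytes, 6 of 7 genes were called higher (median 1.59). Thbd, the anticoagulant receptor thrombomodulin, had 464, 466 and 542 CPM in Q-SEC, against 197, 132 and 121 CPM in Q-HSC (1.71 ± 0.25, adjusted p = 0.00074), and the receptor gene Kit differed by 1.46 ± 0.23. Among the 6 called members, Thbd and Kit kept their call whichever library was omitted, and 2 of the list were called without Q-SEC.1, Q-HSC.2 or Q-HSC.3 and 3 without Q-SEC.3. Wnt2 differed by 1.55 ± 0.42, with an adjusted p of up to 0.074 when Q-SEC.1, Q-HSC.2 or Q-HSC.3 was omitted. Towards the portal tract, 6 of 7 genes were called higher (median 1.55), and they were 6 after omission of any library. Efnb2, an arterial ephrin, had 221, 216 and 227 CPM in Q-SEC, against 80.5, 73.0 and 58.0 CPM in Q-HSC (1.65 ± 0.21, adjusted p = 0.00043). Ntn4, a netrin, differed by 1.64 ± 0.24. The values of both genes were nearly equal among the Q-SEC libraries.

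Of 15 tested genes of large vessels and continuous endothelium, 10 were called higher and 0 lower (median 1.35), and this fell to 6 without Q-SEC.3 or Q-HSC.3. The largest differences among endothelial genes stood here, in genes of low level. Bmx, a tyrosine kinase of arterial endothelium, had 3.30, 6.38 and 6.91 CPM in Q-SEC, against 0.978, 1.30 and 0.335 CPM in Q-HSC (2.64 ± 0.49, adjusted p = 0.0026). Sele, E-selectin, the leukocyte adhesion receptor of activated endothelium, had 9.78, 9.83 and 13.4 CPM in Q-SEC, against 2.15, 1.52 and 2.24 CPM in Q-HSC (2.47 ± 0.46, adjusted p = 0.0027). Both were above every Q-HSC library in every Q-SEC library. The gap junction gene Gja4 differed by 1.65 ± 0.27 and the tip cell gene Esm1 by 1.35 ± 0.25, while 0 of 4 tested lymphatic genes were called (1 lower at an unadjusted p under 0.05, and 0 by DESeq2 or limma-voom).

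Among 21 tested endothelial transcription factor genes, 17 were called higher and 0 lower (median 1.21). Tal1, a basic helix-loop-helix factor of blood and endothelial lineages, had 73.7, 74.8 and 75.5 CPM in Q-SEC, against 26.7, 27.8 and 18.9 CPM in Q-HSC (1.61 ± 0.16, adjusted p = 0.00018). Its Q-SEC values were nearly equal (mean 74.7 CPM, SD 0.942, n = 3) and far above those in Q-HSC. Gata2 differed by 1.43 ± 0.23 and Meis1 by 1.12 ± 0.18. The members not called, named after their values were seen except for Gata6, were Lmo2, Hhex, Gata6 and Foxf1.

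**Figure D2:**
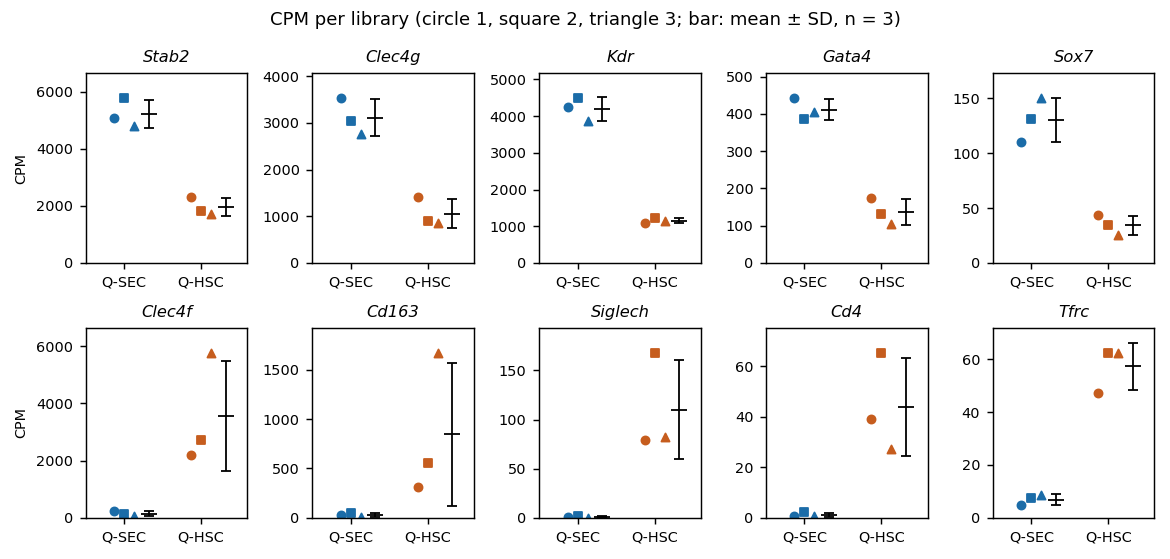
CPM of 10 genes in each library on axes that start at 0, with Q-SEC left of Q-HSC and the mean ± SD of 3 libraries beside the points. The 5 endothelial genes of the upper row are higher in every Q-SEC library and the 5 leukocyte and iron genes of the lower row are higher in every Q-HSC library, where the macrophage genes Clec4f and Cd163 peak in Q-HSC.3.

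In the VEGF, angiopoietin and Notch system 15 of 25 tested genes were called higher and 2 lower (median 1.22). The share called lower was 8%, below the 14.3% over all tested genes. Those higher held receptors, such as Notch4 (1.48 ± 0.28) and Notch1 (1.22 ± 0.23), and ligands made by endothelium, such as Dll4 (1.61 ± 0.32), Angpt2 (1.56 ± 0.35) and Vegfc (1.25 ± 0.22). Vegfc, a ligand of the receptor FLT4, had 19.9, 20.5 and 26.8 CPM in Q-SEC, against 11.2, 8.92 and 8.05 CPM in Q-HSC (adjusted p = 0.0019), without overlap. The lower genes were Notch2 (-1.07 ± 0.37), whose call ended without Q-SEC.1, Q-SEC.3, Q-HSC.2 or Q-HSC.3 (up to 0.12), and Hey1, a Notch target (-1.21 ± 0.31), whose call ended without Q-SEC.2 (0.052). Of 26 genes of the BMP and TGF-β system 13 were called higher and 2 lower (median 0.87). Here the share called lower was 7.69%, again below that over all tested genes. Bmper, a secreted BMP regulator, had 18.8, 16.7 and 16.5 CPM in Q-SEC, against 6.95, 3.37 and 4.14 CPM in Q-HSC (1.84 ± 0.27, adjusted p = 0.00081). The receptor gene Acvr1 differed by 1.05 ± 0.15, and the inhibitory Smad7 by 0.87 ± 0.14. Tgfbr1, the type I receptor of TGF-β, went the other way, with 55.8, 48.5 and 54.4 CPM in Q-SEC, against 97.5, 97.4 and 123 CPM in Q-HSC (-1.0 ± 0.23, adjusted p = 0.0069). Its partner Tgfbr2 was called higher (0.86 ± 0.17), so the receptor chains of TGF-β differed in direction.

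Of 29 guidance genes 14 were called higher and 3 lower (median 1.11). The share called lower was 10.3%, below the 14.3% over all tested genes. Plxna2, a semaphorin receptor, had 329, 346 and 269 CPM in Q-SEC, against 139, 98.9 and 85.4 CPM in Q-HSC (1.55 ± 0.21, adjusted p = 0.00055). Sema6a (1.6 ± 0.22) and Sema3f (1.58 ± 0.21), both semaphorins, were called higher as well. Sema4d, the semaphorin of T cells and other leukocytes, had 7.23, 14.6 and 10.4 CPM in Q-SEC, against 73.4, 95.7 and 41.1 CPM in Q-HSC (-2.70 ± 0.44, adjusted p = 0.0013), and Sema7a, which leukocytes also carry, differed by -2.78 ± 0.47. Neither of the last pair overlapped between fractions. Sema6d (-0.89 ± 0.28) lost its call without any Q-SEC library or Q-HSC.3 (up to 0.12).

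Of 13 haemostasis genes 6 were called higher and 2 lower. The share called lower was 15.4%, near the 14.3% over all tested genes. The number called higher was 4 without Q-SEC.3 or Q-HSC.3. The thrombin receptor gene F2r (1.40 ± 0.20) and the tissue factor pathway inhibitor Tfpi (1.37 ± 0.22) were higher. Entpd1, the ectonucleotidase CD39, had 47.6, 42.5 and 63.2 CPM in Q-SEC, against 113, 132 and 199 CPM in Q-HSC (-1.54 ± 0.24, adjusted p = 0.0011), and Procr, the endothelial protein C receptor, differed by -0.84 ± 0.21. Both were low in every Q-SEC library. Among genes of nitric oxide, endothelin and prostanoids, Edn1, endothelin 1, a vasoconstrictor, had 51.5, 38.4 and 75.7 CPM in Q-SEC, against 9.59, 15.9 and 8.61 CPM in Q-HSC (2.28 ± 0.53, adjusted p = 0.0084). Ptgis, prostacyclin synthase, was lower instead, at 5.85, 2.09 and 2.37 CPM in Q-SEC, against 19.5, 21.4 and 58.7 CPM in Q-HSC (-3.27 ± 0.53, adjusted p = 0.0013). Of the 15 genes of this list 2 were called higher and 2 lower, and 5 lower without Q-SEC.1. The share was 13.3% each way, near the 15.5% higher and 14.3% lower over all tested genes. The other gene lower was Arg1, arginase, whose fractions overlapped (-1.43 ± 0.49, adjusted p up to 0.17 without Q-SEC.1, Q-SEC.3, Q-HSC.1 or Q-HSC.2).

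Basement membrane genes were called higher for 7 of 12 members (median 1.26), and for 4 without Q-HSC.2. Lama4, a laminin chain of vessel walls, had 382, 334 and 351 CPM in Q-SEC, against 158, 123 and 97.4 CPM in Q-HSC (1.5 ± 0.20, adjusted p = 0.00048), and Lamb2 differed by 1.37 ± 0.23. Genes of caveolae and endocytic adaptors were called higher for 9 of 18 members (median 0.54), which fell to 3 without Q-HSC.2, 4 without Q-HSC.3 and 5 without Q-SEC.1 or Q-SEC.3. Cav2 (1.31 ± 0.23), a caveolin, and Dab2 (0.95 ± 0.19), a clathrin adaptor, kept their calls under every omission.

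Levels per length rank genes within a fraction, and the genes named in this paragraph were chosen after their values were seen. The highest protein-coding mean in Q-SEC was that of Sepp1, the selenium carrier selenoprotein P (mm10 chromosome 15, 3270767 to 3280508), at 6511 CPM per kb in Q-SEC and 2758 CPM per kb in Q-HSC. Aqp1, a water channel, stood at 2655 CPM per kb in Q-SEC and 814 CPM per kb in Q-HSC, and Igfbp7, a secreted binding protein of vessel walls, at 2125 CPM per kb in Q-SEC and 868 CPM per kb in Q-HSC. In Q-HSC the actin-binding peptide gene Tmsb4x reached 3600 CPM per kb, against 1108 CPM per kb in Q-SEC, and Clec4f, the Kupffer cell lectin, 1481 CPM per kb, against 59.3 CPM per kb in Q-SEC.

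Stellate cell markers did not part the fractions when all libraries were used. Of 22 markers 1 was called lower in Q-SEC and 0 higher, with a median of -0.73. The exception was Des, desmin, an intermediate filament of contractile cells (mm10 chromosome 1, 75360344 to 75367715), with 7.02, 5.13 and 4.10 CPM in Q-SEC, against 33.6, 14.0 and 12.0 CPM in Q-HSC. It was low in every Q-SEC library, and the log2 difference was -1.87 ± 0.39 (adjusted p = 0.0050), from -2.16 to -1.28 over omissions of 1 library. For the other 21 markers the ranges of the fractions overlapped, and for most of them library 1 of each fraction stood above the other libraries. Dcn, the proteoglycan decorin, had 1101, 65 and 48.9 CPM in Q-SEC, against 1419, 365 and 252 CPM in Q-HSC (-0.75 ± 1.02, adjusted p = 0.62), and Colec11, a collectin of stellate cells, had 261, 13.4 and 9.82 CPM in Q-SEC, against 277, 72.1 and 49.4 CPM in Q-HSC (-0.48 ± 1.02, adjusted p = 0.75). In both, Q-SEC.1 was above Q-HSC.2 and Q-HSC.3, and Q-SEC.2 and Q-SEC.3 were below every Q-HSC library. Summed over the list, the level was 5299, 683 and 485 CPM in Q-SEC, against 6532, 1782 and 1381 CPM in Q-HSC.

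The result for this list rested on single libraries. Without Q-SEC.1, 19 of the 22 markers were called lower in Q-SEC (median -3.09), and without Q-HSC.1, 1 was called lower and 1 higher (median 0.31). With libraries 2 and 3 of every group alone, 18 were called lower and 1 higher (median -2.35). The one higher was Hgf, hepatocyte growth factor, with 125, 181 and 115 CPM in Q-SEC, against 139, 71.2 and 73.7 CPM in Q-HSC. Its difference was 0.57 ± 0.31 over all libraries (adjusted p = 0.19) and 1.01 with libraries 2 and 3 (adjusted p = 0.012). Hgf was thus not raised in Q-SEC.1 over the other Q-SEC libraries, unlike Dcn and Colec11.

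**Figure D3:**
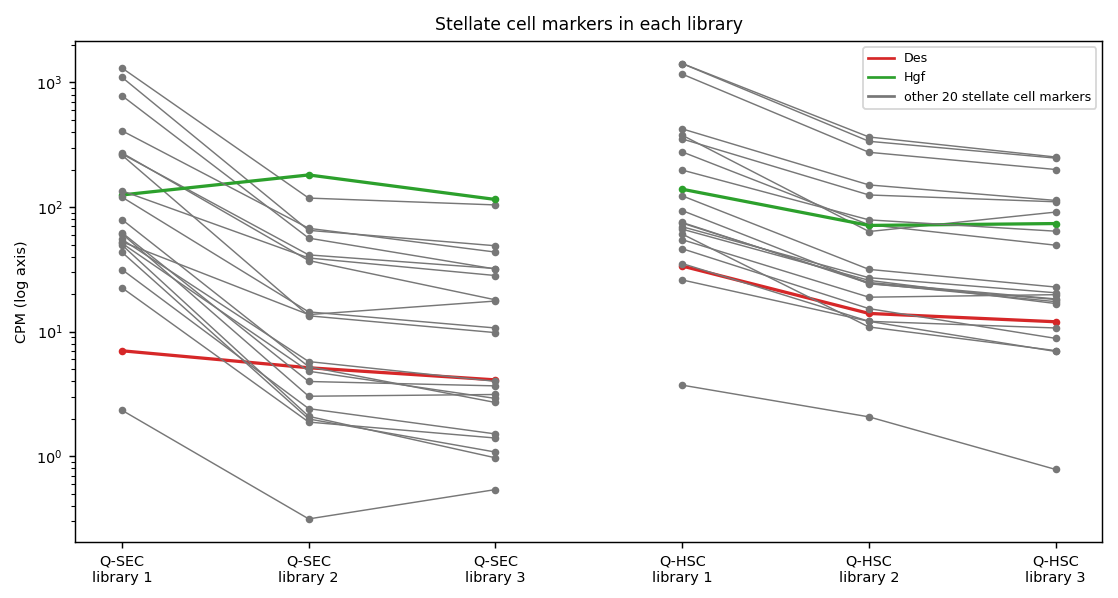
CPM (log axis) of the 22 stellate cell markers in each library, with Q-SEC left of Q-HSC and lines joining the libraries of a fraction for the same gene, although the libraries have no order. Most markers are higher in library 1 than in libraries 2 and 3, with a larger gap in Q-SEC than in Q-HSC, while Des (red) is even and low in Q-SEC and Hgf (green) stays high.

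Of 18 genes of the fibrillar matrix 0 were called by edgeR, with a median of -0.69 (2 higher and 1 lower at an unadjusted p under 0.05, 2 higher and 1 lower by DESeq2, 1 higher and 0 lower by limma-voom), while 9 were called lower without Q-SEC.1 and 3 higher without Q-HSC.1. Col3a1, a chain of type III collagen, had 206, 25 and 20.3 CPM in Q-SEC, against 316, 93.8 and 52.4 CPM in Q-HSC (-0.88 ± 0.88, adjusted p = 0.49). Acta2, smooth muscle actin, the marker of activated stellate cells, stayed low throughout, at 6.06, 1.46 and 0.971 CPM in Q-SEC, against 8.80, 1.41 and 0.783 CPM in Q-HSC. The fractions overlapped for both genes. Of 7 tested portal fibroblast markers 3 were called lower and 1 higher. Thy1, a surface glycoprotein that T cells carry as well, had 2.55, 2.30 and 3.78 CPM in Q-SEC, against 100, 83.4 and 27.7 CPM in Q-HSC (-4.61 ± 0.56, adjusted p = 0.00039), and it was lowest in Q-HSC.3, as were most T cell genes described below. Gli1, a Hedgehog target, differed by -2.46 ± 0.60 at 0.106, 0.523 and 0.324 CPM in Q-SEC, against 2.74, 0.979 and 1.68 CPM in Q-HSC. Of the remaining called members, Fbln1 overlapped between the fractions (-2.36 ± 0.75, adjusted p up to 0.21 without Q-HSC.1 or any Q-SEC library), as did Eln, elastin (1.61 ± 0.44, up to 0.073 without Q-SEC.3, Q-HSC.2 or Q-HSC.3).

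The smaller lists gave few calls. Of 16 tested genes of retinoid storage and metabolism 2 were called higher (median -0.24), and 0 without Q-HSC.2 or Q-HSC.3. That share of 12.5% was near the 15.5% over all tested genes. Of 9 smooth muscle genes 1 was called higher (median -0.53), and 0 without Q-SEC.1, Q-HSC.2 or Q-HSC.3. Of 7 mesothelial markers 3 were called lower and 1 higher (median -1.54), but 0 were lower without Q-SEC.2 or Q-HSC.1, and limma-voom called 0 in either direction. Red cell genes were called lower for 4 of 5 tested members (median -2.95), but Hba-a1 and Hba-a2 held identical counts over overlapping coordinates, so that the same reads stand behind both calls. Platelet genes were called lower for 2 of 4 (median -0.92), and for 0 without any Q-SEC library, without Q-HSC.2 or by limma-voom.

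Macrophage genes were lower in Q-SEC by far more than endothelial genes were higher. Of 20 Kupffer cell markers 17 were called lower in Q-SEC and 1 higher, with a median of -4.28, and 16 or 17 were lower after omission of any library. Spic, the transcription factor of iron-recycling macrophages, had 2.76, 2.30 and 1.08 CPM in Q-SEC, against 29.4, 40.4 and 71.2 CPM in Q-HSC (-4.51 ± 0.50, adjusted p = 0.00028). Nr1h3, the liver X receptor α, had 13.9, 11.7 and 8.31 CPM in Q-SEC, against 115, 168 and 303 CPM in Q-HSC (-4.11 ± 0.44, adjusted p = 0.00026), and the folate receptor gene Folr2 differed by -4.58 ± 0.54. These genes were lowest in Q-SEC.3 and highest in Q-HSC.3, and the stellate marker share of Q-HSC.3 was the smallest of the Q-HSC libraries. Id3, which was called higher (0.59 ± 0.20, adjusted p = 0.042), lost its call on omission of any library (up to 0.17). Clec1b and Hpgd, named after their values were seen, were not called, at -0.13 ± 0.34 and -0.32 ± 0.28. The large abundant genes behaved alike, with Mpeg1, the pore-forming perforin-2 of phagocytes, at 82.6, 90.4 and 47.5 CPM in Q-SEC, against 811, 1292 and 2028 CPM in Q-HSC (-4.23 ± 0.55, adjusted p = 0.00048).

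Genes of other myeloid cells were lower too. Of 16 monocyte and other macrophage genes 11 were called lower and 0 higher (median -2.64). Plac8, a cysteine-rich protein of myeloid and other leukocytes, had 26.4, 19 and 16.8 CPM in Q-SEC, against 67.3, 137 and 193 CPM in Q-HSC (-2.67 ± 0.36, adjusted p = 0.00057). Of 15 dendritic cell genes 10 were called lower and 2 higher (median -3.04). Flt3, the cytokine receptor of dendritic cell precursors, had 0.213, 0.314 and 0 CPM in Q-SEC, against 15.2, 41.5 and 21.7 CPM in Q-HSC. The Q-SEC values lay at or under the level of 3 counts, so the fitted log2 difference of -7.11 ± 0.60 (adjusted p = 0.00011) depends on few reads. Siglech, a lectin of plasmacytoid dendritic cells, had 1.28, 1.57 and 0.216 CPM in Q-SEC, against 79.3, 168 and 82.1 CPM in Q-HSC (-6.73 ± 0.63, adjusted p = 0.00018). Batf3, needed by cross-presenting dendritic cells, differed by -4.96 ± 0.41, and the lectin gene Clec10a by -4.60 ± 0.39. All 4 were highest in Q-HSC.2 or, for Batf3, in Q-HSC.3. The 2 called higher were Zbtb46 (1.53 ± 0.24), a factor that endothelial cells also express, and Fscn1 (1.21 ± 0.22), an actin-bundling protein. All 11 genes of MHC class II presentation were called lower (median -3.63, from -4.42 to -2.39), and they were 11 after every omission. H2-DMb1, a subunit of the peptide-loading chaperone, had 4.47, 3.77 and 2.48 CPM in Q-SEC, against 38.2, 49.1 and 52.7 CPM in Q-HSC (-3.70 ± 0.41, adjusted p = 0.00029).

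Lymphocyte genes differed in the same direction with another order of libraries. Of 20 genes of T, NK and innate lymphoid cells 14 were called lower and 0 higher (median -3.14), and 9 without Q-SEC.2. Cd4, the T helper co-receptor that macrophages can also carry, had 0.638, 2.20 and 0.863 CPM in Q-SEC, against 39.2, 65.3 and 27.2 CPM in Q-HSC (-5.14 ± 0.48, adjusted p = 0.00018). Cd8b1, a chain of the cytotoxic co-receptor, had 0.851, 0.628 and 1.83 CPM in Q-SEC, against 38.4, 24.4 and 12.2 CPM in Q-HSC (-4.49 ± 0.73, adjusted p = 0.0014). Most of these genes were lowest in Q-HSC.3, where Kupffer cell genes were highest. The list summed to 71.0, 98.5 and 131 CPM in Q-SEC, against 1073, 751 and 296 CPM in Q-HSC. Pdcd1, an inhibitory T cell receptor, had a large fitted difference that rested on Q-HSC.1, with 0.213, 0 and 0 CPM in Q-SEC, against 45.7, 1.85 and 0.671 CPM in Q-HSC. Its fitted difference was -7.60 ± 1.98 (adjusted p = 0.014), between -10.36 and -3.95 over omissions, and its call ended without Q-SEC.2, Q-SEC.3 or Q-HSC.1 (up to 0.063). Of 8 tested B and plasma cell genes 3 were called lower, and 1 without Q-SEC.1 or Q-HSC.2, and Cd79b, a chain of the B cell receptor, kept its call throughout (-2.01 ± 0.39).

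Neutrophil genes were the exception among leukocytes. Of 13 tested, 8 were called higher in Q-SEC and 0 lower (median 3.36), and 5 without Q-HSC.3. By limma-voom 2 were higher and 0 lower, and by DESeq2 8 higher and 1 lower. Retnlg, a resistin-like protein of neutrophil granules, had 3.83, 78.2 and 31.8 CPM in Q-SEC, against 0.783, 1.20 and 0.783 CPM in Q-HSC (5.35 ± 1.0, adjusted p = 0.0026). Cxcr2, the receptor for neutrophil-attracting chemokines, had 4.04, 55.8 and 16.5 CPM in Q-SEC, against 1.47, 3.70 and 2.68 CPM in Q-HSC (3.28 ± 0.77, adjusted p = 0.0086). Both were far lower in Q-SEC.1 than in the other Q-SEC libraries, but its level was still above every Q-HSC library. The list summed to 81.1, 1398 and 609 CPM in Q-SEC, against 100.4, 253 and 216 CPM in Q-HSC, so over the sum Q-SEC.1 lay below all Q-HSC libraries. Hdc, histidine decarboxylase, which makes histamine, had 118, 205 and 142 CPM in Q-SEC, against 47.0, 46.0 and 41.6 CPM in Q-HSC (1.79 ± 0.20, adjusted p = 0.00029), while the other mast cell and basophil genes except Gata2 had too few reads to test.

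Hepatocyte and bile duct transcripts were present in both fractions. The 11 genes of secreted hepatocyte proteins, albumin among them, summed to 1638, 6704 and 4194 CPM in Q-SEC, against 4481, 10421 and 4677 CPM in Q-HSC, and 0 of them were called by edgeR (median -0.69), with 1 lower at an unadjusted p under 0.05 and 0 by DESeq2 or limma-voom. Q-SEC.1 was the lowest library and Q-HSC.2 the highest. Of the zonated hepatocyte genes 3 of 8 pericentral and 2 of 9 periportal genes were called lower, and each of these 5 lost its call on omission of at least 2 of the libraries other than Q-HSC.3 (adjusted p up to 0.12 for Cyp1a2, 0.065 for Oat, 0.059 for Slc1a2, 0.066 for Ass1 and 0.17 for Arg1). Of 8 cholangiocyte markers 0 were called by edgeR (median 1.41), with 2 higher at an unadjusted p under 0.05, 1 higher by DESeq2 and 0 by limma-voom. Of the same markers 3 were called higher without Q-SEC.1, and 5 with libraries 2 and 3 alone. They summed to 163, 895 and 969 CPM in Q-SEC, against 92.8, 367 and 161 CPM in Q-HSC. Neutrophil and cholangiocyte sums were thus both low in library 1 of each fraction.

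**Figure D4:**
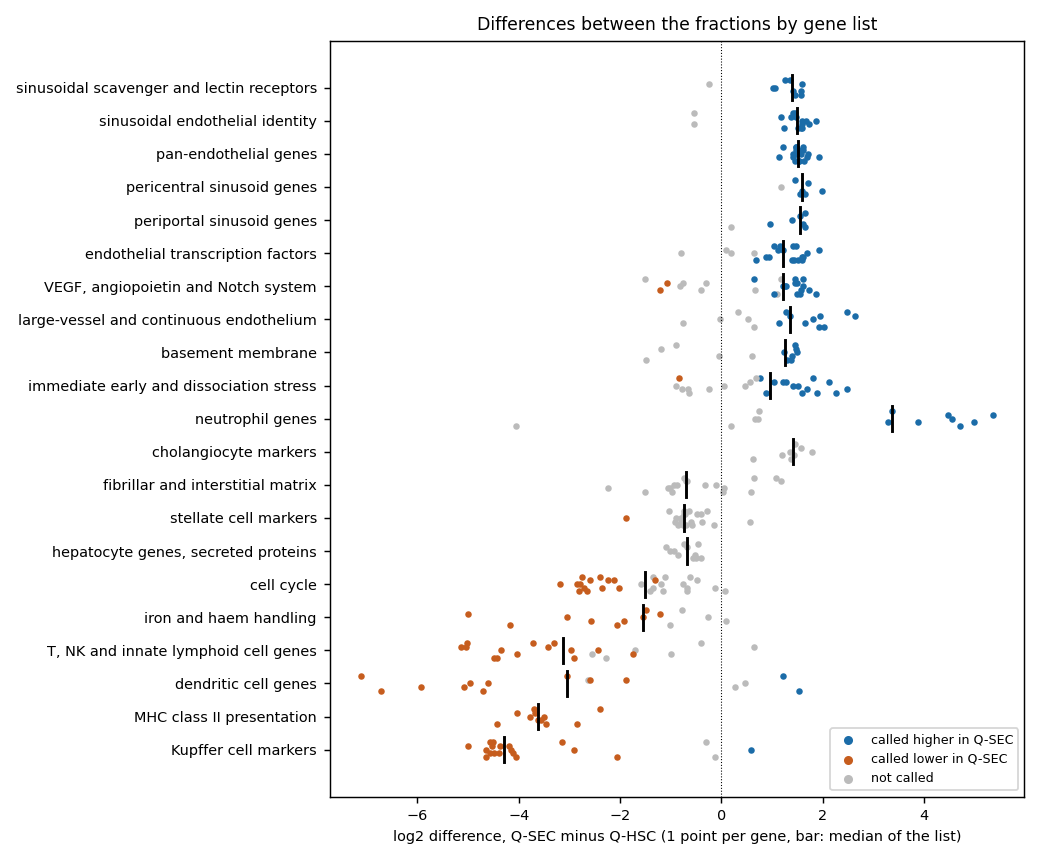
Log2 difference of Q-SEC minus Q-HSC for each tested member of 21 gene lists, with blue for genes called higher, orange for genes called lower, grey for genes not called and a black bar at the median of the list. The median is 1.51 for pan-endothelial genes and 1.49 for sinusoidal endothelial genes, against -4.28 for Kupffer cell markers and -3.63 for MHC class II presentation.

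Immediate early genes, a class known to respond to tissue dissociation, were called higher for 14 of 24 members and lower for 1 (median 0.96). Socs3, an inhibitor of cytokine signalling, had 1097, 1226 and 940 CPM in Q-SEC, against 329, 200.4 and 221 CPM in Q-HSC (2.12 ± 0.26, adjusted p = 0.00037). Jun (1.52 ± 0.26) and Zfp36 (1.21 ± 0.21), which destabilises cytokine mRNA, were higher too, and Fosb reached 2.47 ± 0.51. Each was higher in all Q-SEC libraries. Myc, the member called lower (-0.83 ± 0.21), lost its call without Q-SEC.3 or Q-HSC.3 (up to 0.053). Adamts1, a metalloproteinase, had 516, 666 and 511 CPM in Q-SEC, against 187, 84.0 and 96.7 CPM in Q-HSC (2.20 ± 0.37, adjusted p = 0.0016). Cell cycle genes went the other way, with 14 of 28 called lower and 0 higher (median -1.5), and 9 without Q-SEC.3, 7 by limma-voom and 18 by DESeq2. Cenpe, a mitotic kinesin, had 3.40, 6.59 and 5.61 CPM in Q-SEC, against 23.4, 33.9 and 56.1 CPM in Q-HSC (-2.86 ± 0.54, adjusted p = 0.0028).

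Iron handling genes were called lower for 9 of 13 members and higher for 0 (median -1.56). Tfrc, the transferrin receptor (mm10 chromosome 16, 32608896 to 32632794), had 4.68, 7.32 and 8.63 CPM in Q-SEC, against 47.0, 62.4 and 62.4 CPM in Q-HSC (-3.05 ± 0.26, adjusted p = 0.00011). Slc11a1, the iron transporter of phagosomes, had 14.6, 20 and 6.48 CPM in Q-SEC, against 152, 201 and 391 CPM in Q-HSC (-4.18 ± 0.60, adjusted p = 0.00073). Both genes were low in every Q-SEC library, but Tfrc was even among the Q-HSC libraries whereas Slc11a1 was highest in Q-HSC.3, as Kupffer cell markers were. The biliverdin reductase Blvrb, of haem breakdown, differed by -1.56 ± 0.23.

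Metabolic lists held few genes called higher. Of 16 glycolysis genes 6 were called lower and 1 higher (median -0.46), and 3 lower without Q-SEC.3 or Q-HSC.3. The hexokinase genes parted. Hk1, the housekeeping form, had 124, 131 and 129.7 CPM in Q-SEC, against 93.0, 77.2 and 76.6 CPM in Q-HSC (0.64 ± 0.13, adjusted p = 0.0045), whereas Hk2 had 9.89, 9.52 and 7.77 CPM in Q-SEC, against 61.0, 62.6 and 119.5 CPM in Q-HSC (-3.16 ± 0.38, adjusted p = 0.00037) and the myeloid form Hk3 differed by -3.70 ± 0.63. None of these overlapped between fractions. In oxidative phosphorylation 2 of 21 genes were called lower (9.52%, against 14.3% over all tested genes). These were Cox5a at -1.54 ± 0.27 and Sdhb at -0.61 ± 0.19. The call of Sdhb needed all of Q-SEC.2, Q-SEC.3 and Q-HSC.3 in the fit (up to 0.12). Of 16 cholesterol genes, Mylip, an E3 ligase that degrades the LDL receptor, was the one called higher (1.23 ± 0.23) and Nr1h3 the one called lower. That share of 6.25% each way was below the 15.5% higher and 14.3% lower over all tested genes. Of 81 tested ribosomal protein genes 20 were called lower and 0 higher (median -0.47), a count of 31 without Q-SEC.1 and of 3 to 7 without any other library.

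Lysosomal genes were called lower for 6 of 23 members and higher for 2 (median -0.63), while 3 were lower without Q-SEC.3 and 1 was higher without Q-SEC.1, Q-SEC.3, Q-HSC.2 or Q-HSC.3. The shares were 26.1% lower and 8.7% higher, against 14.3% and 15.5% over all tested genes. The cathepsins did not move together. Ctsl, cathepsin L, had 1479, 1604 and 1429 CPM in Q-SEC, against 723, 608 and 677 CPM in Q-HSC (1.17 ± 0.28, adjusted p = 0.0094), whereas Ctsc, which activates granule proteases, had 59.1, 56.1 and 26.5 CPM in Q-SEC, against 455, 624 and 1384 CPM in Q-HSC (-4.12 ± 0.50, adjusted p = 0.00039). Ctss, the cathepsin that trims the MHC class II invariant chain, differed by -4.42 ± 0.55. For each of these cathepsin genes the values of the fractions did not overlap.

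Calls among innate immune genes were mostly lower in Q-SEC. Of Toll-like receptor genes 6.25% were called higher, and of complement genes 9.09%, against 15.5% over all tested genes. In each of these lists 50% were called lower, against 14.3% over all tested genes. Of 16 Toll-like receptor genes and co-receptors 8 were called lower and 1 higher (median -1.18). Tlr7, a receptor for single-stranded RNA, had 5.95, 4.08 and 3.99 CPM in Q-SEC, against 61.4, 76.8 and 129 CPM in Q-HSC (-4.25 ± 0.51, adjusted p = 0.00036), and Tlr1, the partner of TLR2, differed by -3.68 ± 0.51. Lbp, which hands lipopolysaccharide to its receptors, was the one higher (0.92 ± 0.16). Of 22 tested complement genes 11 were called lower and 2 higher (median -1.10). Cfp, properdin, had 45.4, 33.0 and 17.7 CPM in Q-SEC, against 414, 490.2 and 1038 CPM in Q-HSC (-4.34 ± 0.54, adjusted p = 0.00042). The higher pair were the cell-bound inhibitors Cd55 (1.38 ± 0.21) and Cd59a (1.43 ± 0.30). Of 16 interferon-stimulated genes 4 were called lower and 0 higher (median -0.18). Mx1, an antiviral GTPase, had 2.98, 4.29 and 2.37 CPM in Q-SEC, against 30.2, 47.4 and 62.6 CPM in Q-HSC (-3.86 ± 0.40, adjusted p = 0.00025). Its call and those of Irf7 (-2.02 ± 0.39) and Ifi27l2a (-3.27 ± 0.76) held under every omission.

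Of 19 chemokine genes 7 were called lower and 2 higher (median -1.45). The shares were 36.8% lower and 10.5% higher, against 14.3% and 15.5% over all tested genes. Cxcl10, an interferon-induced ligand of CXCR3, had 225, 197 and 175 CPM in Q-SEC, against 62.7, 26.9 and 30.1 CPM in Q-HSC (2.32 ± 0.38, adjusted p = 0.0013), and the neutrophil chemokine Cxcl1 differed by 2.04 ± 0.44. Cxcl13, the B cell chemokine, had 8.51, 3.14 and 0.971 CPM in Q-SEC, against 77.9, 43.7 and 138 CPM in Q-HSC (-4.36 ± 0.63, adjusted p = 0.00078). Of 17 tested chemokine receptor genes 8 were called lower and 6 higher (median -0.78), and the number higher was 3 without Q-SEC.3, Q-HSC.2 or Q-HSC.3. The atypical receptors, which bind chemokines without G protein signalling, were on the higher side. Ccbp2, also called Ackr2, had 97.2, 109 and 99.7 CPM in Q-SEC, against 38.5, 34.7 and 26.4 CPM in Q-HSC (1.62 ± 0.20, adjusted p = 0.00041), and Darc, also called Ackr1, differed by 1.63 ± 0.25. The atypical receptors Cxcr7 (1.36 ± 0.43) and Ccrl1 (1.23 ± 0.38) lost their calls without Q-SEC.1, Q-SEC.3, Q-HSC.2 or Q-HSC.3. Signalling receptors stood on both sides, with Ccr9 (-5.07 ± 0.54) and Cxcr6 (-5.02 ± 0.88) lower and Cxcr2 (3.28 ± 0.77) higher. Among 24 integrin genes 6 were called higher and 8 lower, with the collagen-binding Itga1 (1.20 ± 0.25) and fibronectin-binding Itga5 (1.05 ± 0.20) on one side and the leukocyte chains Itgal (-3.44 ± 0.50) and Itgb2 (-2.89 ± 0.52) on the other. Itgb5, a vitronectin receptor chain, was lower with them (-2.66 ± 0.40).

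Several gene families held close relatives on opposite sides. Clec4g, high in Q-SEC, has the relatives Clec4a1, Clec4a2, Clec4a3, Clec4b1, Clec4f and Clec4n, all called lower, from -4.64 to -3.69, and Clec4d (1.93 ± 0.92, adjusted p = 0.14) and Clec4e (1.9 ± 0.72, adjusted p = 0.069), which were not called and highest in Q-SEC.2. Cd209b, a lectin of marginal zone and sinusoidal cells, had 23.2, 22.5 and 18.1 CPM in Q-SEC, against 8.90, 5.76 and 6.71 CPM in Q-HSC (1.57 ± 0.23, adjusted p = 0.00072). Its relative Cd209a, of dendritic cells, had 0.319, 0.105 and 0.108 CPM in Q-SEC, against 11.2, 16 and 7.60 CPM in Q-HSC (-5.93 ± 0.54, adjusted p = 0.00015), and Cd209d had no read in any Q-SEC library, against 5.18, 7.28 and 3.35 CPM in Q-HSC. Counting can split reads between such near copies, so their values are less certain than those of single genes. Among Fc receptors the inhibitory Fcgr2b and the neonatal receptor gene Fcgrt (0.89 ± 0.19) were higher, whereas the activating Fcgr1 (-4.47 ± 0.62), Fcgr3 (-3.62 ± 0.51) and Fcgr4 (-3.86 ± 0.72) were lower. No activating member was on the side of Q-SEC.

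Axl, a receptor for dying cells, had 77.7, 47.7 and 25.7 CPM in Q-SEC, against 361, 491 and 1017 CPM in Q-HSC (-3.63 ± 0.51, adjusted p = 0.00072), while its relative Mertk had 492, 623 and 437 CPM in Q-SEC, against 359, 353 and 559.6 CPM in Q-HSC (0.29 ± 0.34, adjusted p = 0.56), with overlap. The TIM receptors of phosphatidylserine Timd4 (-4.64 ± 0.69) and Havcr2 (-4.21 ± 0.57) were lower. Hdac7, a class IIa histone deacetylase of vessel integrity, had 281, 331 and 323 CPM in Q-SEC, against 146, 153 and 106 CPM in Q-HSC (1.21 ± 0.19, adjusted p = 0.00098), opposite to its relative Hdac9. Gimap6 was called higher (1.33 ± 0.31) and the GTPase genes Gimap3 (-4.01 ± 0.85) and Gimap7 (-3.80 ± 0.93), of lymphocytes, lower.

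**Figure D5:**
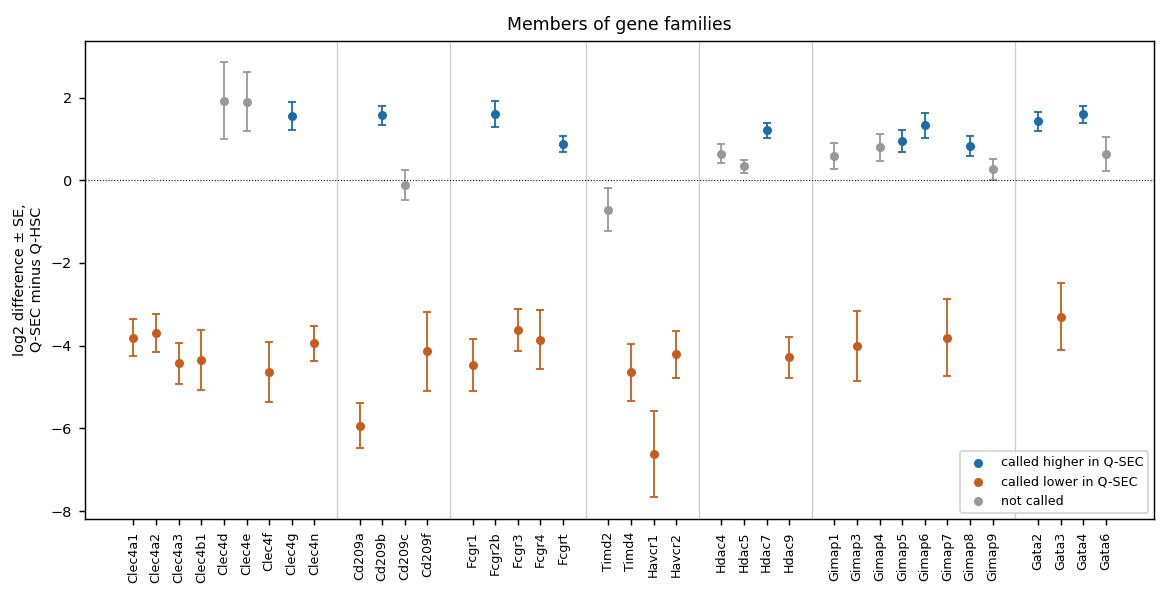
Log2 difference ± SE of Q-SEC minus Q-HSC for the tested members of 7 gene families, with blue for members called higher, orange for members called lower and grey for members not called. Cd209d, which had no read in Q-SEC, is left out, and every family shown except the TIM receptors holds members called in opposite directions.

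The 39 ligand and receptor pairs of the hepatic niche can be read by where each partner was higher. Both partners were called higher in Q-SEC for 7 pairs, among them Efnb2 with Ephb4 (1.48 ± 0.32) and Kitl (1.12 ± 0.19) with Kit, and both lower for 2. These were Il6 with Il6ra, where Il6 had a mean of 0.142 CPM in Q-SEC, under the level of 3 counts, and Vcam1 with Itga4, and without Q-SEC.2, Q-SEC.3 or Q-HSC.3 both lost the call of the ligand (adjusted p up to 0.12 for Il6 and 0.076 for Vcam1). The ligand was higher and the receptor lower for 2 pairs. Csf1, the macrophage growth factor, had 224, 189 and 211 CPM in Q-SEC, against 121, 84.8 and 53.6 CPM in Q-HSC (1.26 ± 0.28, adjusted p = 0.0061), and its receptor gene Csf1r had 97.3, 107 and 51.0 CPM in Q-SEC, against 756, 1146 and 2469 CPM in Q-HSC (-4.10 ± 0.60, adjusted p = 0.00079). Every Q-SEC library thus lay above every Q-HSC library for the ligand and below every one for the receptor. Gas6, which bridges phosphatidylserine to AXL, had 476, 434 and 515 CPM in Q-SEC, against 258, 200.4 and 124 CPM in Q-HSC (1.29 ± 0.25, adjusted p = 0.0028). The reverse held for Igf1, with 18.3, 42.9 and 35.4 CPM in Q-SEC, against 143, 229 and 399 CPM in Q-HSC (-3.0 ± 0.42, adjusted p = 0.00072), whose receptor gene Igf1r was called higher (1.10 ± 0.19). These are RNA levels in fractions that each hold several cell types, and no signal between cells was measured.

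The promoters of genes lower in Q-SEC were read for a sequence that macrophage and lymphoid ETS factors such as PU.1 are known to bind, GAGGAAGT on either strand, from 250 bases before to 50 after the RefSeq gene start in GRCm38.p6. It was present in 11.1% of 407 promoters of genes lower by at least 8-fold, 6.77% of 1521 promoters of all genes called lower, 2.63% of 1636 promoters of genes called higher, 3.24% of 10666 promoters of tested genes and 3.28% of all 27025 promoters. CAGGAAGT, which shares its last 7 letters with that sequence, was present in 8.35, 5.13, 3.12, 3.59 and 3.38% of the same sets, and the GATA sequence AGATAA in 12.5, 9.20, 5.93, 6.77 and 11.4%. Among the sets of tested genes the median GC content moved with these shares. It was 52.7% for genes lower by at least 8-fold, 58.0% for genes called lower, 62.7% for genes called higher and 60.3% for tested genes. For all 27025 promoters it was 52.7% too, with GAGGAAGT in 3.28%, CAGGAAGT in 3.38% and AGATAA in 11.4% of them. The part of GC content in the shares was not tested. The shares are a description, and a match is not evidence of binding. Of the 85 named genes lower by at least 8-fold 64 had a promoter, and 9 of these held GAGGAAGT. C1qc, Ctss and Tlr1 are shown here because they stand for the complement, lysosomal and Toll-like receptor groups, each over the 220 bases before and 30 bases after the gene start, in the direction of the gene, with the match in capitals. In C1qc (chr4:136892885-136893134, minus strand) and Ctss (chr3:95526566-95526815, plus strand) the match lies on the opposite strand and reads ACTTCCTC, and in Tlr1 (chr5:64933529-64933778, minus strand) it lies on the strand of the gene.
C1qc: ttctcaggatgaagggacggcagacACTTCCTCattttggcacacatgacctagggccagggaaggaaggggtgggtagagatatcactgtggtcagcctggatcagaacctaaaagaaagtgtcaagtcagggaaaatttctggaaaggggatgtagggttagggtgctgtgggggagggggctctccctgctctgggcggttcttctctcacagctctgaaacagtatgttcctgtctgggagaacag
Ctss: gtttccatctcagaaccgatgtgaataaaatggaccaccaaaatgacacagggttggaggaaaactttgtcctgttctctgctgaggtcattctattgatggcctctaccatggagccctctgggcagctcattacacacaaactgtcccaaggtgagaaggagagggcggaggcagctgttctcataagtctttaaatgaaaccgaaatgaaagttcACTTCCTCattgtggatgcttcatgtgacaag
Tlr1: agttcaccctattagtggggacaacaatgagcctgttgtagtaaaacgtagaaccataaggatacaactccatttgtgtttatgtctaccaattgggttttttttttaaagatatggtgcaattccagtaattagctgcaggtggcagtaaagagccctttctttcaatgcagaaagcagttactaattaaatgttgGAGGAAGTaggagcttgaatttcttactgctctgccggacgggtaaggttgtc
The matches began 195, 2 and 23 bases before the start of C1qc, Ctss and Tlr1.

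The comparison between fractions was set beside the same one in CCl4-treated liver, F-SEC against F-HSC, for the genes that the study names as cell type markers. The difference between the 2 comparisons was called for 116 of 14489 genes (0.801%), a count that lay between 3 and 743 on omission of each of the 12 libraries in turn, and for 1 of the 22 named markers that could be tested. That gene was Des, whose level was 142, 91.7 and 144 CPM in F-SEC and 55.8, 37.8 and 52.3 CPM in F-HSC, so that all F-SEC libraries were above all F-HSC libraries, the opposite of control liver. Its log2 difference was 1.37 ± 0.36 in treated liver (adjusted p = 0.019) and -1.87 ± 0.39 in control liver, apart by -3.25 ± 0.53 (adjusted p = 0.032). The call of this contrast ended without Q-SEC.2 (adjusted p = 0.086), Q-SEC.3 (0.11), Q-HSC.2 (0.052), F-HSC.2 (0.072), F-HSC.3 (0.089) or any F-SEC library (0.052, 0.073 and 0.071). Several other mesenchymal markers the study names shifted in the same direction without passing the test. Lrat, Reln, Lhx2, Col1a1, Col3a1 and Acta2 all had a negative difference in control liver and a positive one in treated liver, apart by -2.37 to -1.55 with SEs from 1.13 to 1.49 (adjusted p from 0.31 to 0.58), and Msln was apart by -2.25 ± 0.73 (adjusted p = 0.15). Upk1b, lower in F-SEC as well, was apart by -0.66 ± 0.70 (adjusted p = 0.67). Entpd2 (0.99 ± 0.66, adjusted p = 0.46) and Gpm6a (0.64 ± 0.64, adjusted p = 0.65) were apart in the opposite direction. The shift is thus not shown to be particular to Des or to mesenchymal markers, nor to be shared by all mesenchymal markers. All 8 endothelial markers had a larger difference in treated than in control liver, apart by -0.56 for Lyve1 to -0.06 for Kdr (adjusted p from 0.65 to 0.95). Lyve1 differed by 1.91 ± 0.47 in treated and 1.35 ± 0.46 in control liver, and Mcam by 1.76 ± 0.19 in treated and 1.7 ± 0.19 in control liver. Macrophage markers were apart in the same direction as Des, without a call. Csf1r differed by -1.31 ± 0.53 in treated liver (adjusted p = 0.096) and by -4.10 ± 0.60 in control liver. It was apart by -2.79 ± 0.76 (adjusted p = 0.10), Emr1 by -2.50 ± 0.79 (adjusted p = 0.14) and Lyz2 by -1.62 ± 0.76 (adjusted p = 0.29).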

How the data were processed

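Total RNA of each fraction was sequenced on a HiSeq and, per the labels and the methods of the study, the authors used bcl2fastq for base calls and TopHat2 2.0.13 for alignment, with mm10 as genome. The counting tool and its use of strand are not given in the sources used here. The deposited table holds counts per entry and RPKM values, which the authors scaled by length and depth. RPKM values were not used for any test. Of 56826 lines, 1 was empty, 33353 were clone entries and 23472 were genes, of which 27 symbols changed to dates were restored. Gene counts of all 12 libraries were fitted with edgeR 4.0.16 in R 4.3.3 (TMM scaling, filterByExpr, robust quasi-likelihood test, Benjamini-Hochberg adjustment over 14489 genes), and the fit was tested on simulated data. Alternatives used DESeq2 1.42.0 and limma 3.58.1 (voom). Genes were named if the study names them as markers, if they are stellate markers, family or ligand and receptor members, if they were among the 4 members of a list with the lowest adjusted p or were called against its majority, or if they were among the 15 with the largest fold or CPM difference in each direction. The comparison, its members and all gene lists were chosen with earlier results of these data known. Promoter sequences are from RefSeq (GRCm38.p6). Some single-gene results are not reported here.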

Additional observations from a re-analysis of the deposited data

Results flagged for a closer look

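Des was the one study-named marker whose difference between fractions was called as different between control and CCl4-treated liver. The log2 difference of F-SEC over F-HSC was 1.37 ± 0.36 and that of Q-SEC over Q-HSC was -1.87 ± 0.39, and the control difference less the treated one was -3.246 (edgeR's quasi-likelihood test, Benjamini-Hochberg adjusted p = 0.032, 12 libraries). Over omissions of 1 library it lay between -3.54 and -2.66, in the same direction each time, and with limma-voom its adjusted p was 0.059. Its call ended without Q-SEC.2, Q-SEC.3, Q-HSC.2, F-HSC.2, F-HSC.3 or any F-SEC library (adjusted p from 0.052 to 0.11). Lrat, Reln, Lhx2, Col1a1, Col3a1 and Acta2 were apart in the same direction, by -2.37 to -1.55, with larger SEs (1.13 to 1.49) and no call. Entpd2 and Gpm6a were apart in the opposite direction, also without a call. The macrophage markers Emr1, Lyz2 and Csf1r were apart in the same direction as Des, without a call. The shift is not shown to be particular to Des or to mesenchymal markers.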

How the results depend on the processing

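No call shared with an alternative changed direction under RLE scaling, no filter, a filter at 10 CPM, DESeq2, limma-voom, the replicate block, the fit of the 6 control libraries alone, libraries 2 and 3 alone or omission of any 1 library. At an adjusted p under 0.01 the count of called genes was 2399 (1205 higher, 1194 lower), and with at least a 2-fold difference it was 2750 (1148 higher). Over omissions of 1 library the genes called higher numbered 1343 to 2124, fewest without Q-HSC.3 (1343) and Q-HSC.2 (1399). The difference between control and treated liver was called for 911 genes by DESeq2, 27 by limma-voom, 4 at an adjusted p under 0.01, 1712 with libraries 2 and 3 alone and 3 to 743 over omissions, and the cause was not tested. The replicate block gave 5074 called genes, against 4317 without it, and 183 genes for that difference. Deviations of same-numbered libraries correlated at 0.53, 0.497 and -0.011, and those of Q-SEC.3 and Q-HSC.2 at 0.494. The numbers are thus not shown to pair the libraries, and a shared source of libraries 1 and 2 was not tested.

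Of lists, limma-voom called 7 monocyte genes and 1 B cell gene lower, DESeq2 called 5 pericentral hepatocyte genes and 11 chemokines lower, and ribosomal protein genes called lower numbered 39 by DESeq2 and 27 by limma-voom. Genes not called in all libraries changed sign under single alternatives. Over omissions of 1 library the log2 difference ran from -1.604 to 1.336 for Acta2, -0.304 to 0.205 for Clec1b, -2.765 to 0.179 for Col3a1, -3.513 to 0.625 for Colec11, -3.574 to 0.374 for Dcn, -3.614 to 0.524 for Foxf1, -0.118 to 0.373 for Hhex, -2.679 to 0.482 for Lrat, -3.632 to 0.271 for Reln and -3.295 to 0.033 for Lhx2, and with libraries 2 and 3 alone it was 0.128 for Acta2 and -0.025 for Lmo2. With 3 libraries a fraction, and Q-SEC.1 and Q-HSC.1 apart from the rest in stellate markers, the precision for stellate and matrix genes was low. Differences of genes near 3 counts rest on few reads.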
